A study of Mus musculus with 69 samples.

Results

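A set of 8 genes was followed across 3 lines of mouse embryonic stem cells (ESCs). The set holds Wdr77, the 6 methylosome partners Prmt5, Clns1a, Riok1, Snrpb, Snrpd1 and Snrpd3, and Atp5f1, which overlaps Wdr77 in the GENCODE annotation. They are 8 of the 16263 genes in the count table. Wdr77 was chosen because its level differed between the mutant clones, and Atp5f1 for its place beside it, so the values of both genes are a description with no test. The partners were picked by name for what their proteins do, and they were tested. All 8 genes passed the filter on low counts.

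The study asked whether acetylation of lysine 27 of histone H3 is needed for enhancer activity. WT cells were J1 ESCs of strain 129S4/SvJae, from the inner cell mass. Mut18 and Mut43 are H3.3K27R clones of the same line, each 1 clone, in which CRISPR-Cas9 changed lysine 27 to arginine at both alleles of H3f3a and H3f3b, the genes of histone variant H3.3. All lines were grown on feeder cells, with 2 passages without feeders before harvest, and each line has 2 mRNA-seq and 2 ATAC-seq libraries labelled as biological replicates. The ATAC-seq assay marks open chromatin.

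The mRNA-seq libraries held 14992756 to 15143998 counts. All 8 ESC markers, among them Pou5f1, Nanog and Sox2, were present in every library, with a summed level of 57296 to 67572 normalized counts. The 10 feeder fibroblast markers summed to 10276 and 8834 normalized counts in WT cells, against 7267 and 6603 in Mut18 cells and 5237 and 4894 in Mut43 cells. Levels within that list ranged widely. Lum and Dcn lay at or under 39.0 normalized counts in every library, with Lum at 0 in replicate 2 of each line, while Col1a1 ran from 1234 to 1986, Acta2 from 1268 to 2728 and Tagln from 1687 to 3415. Col3a1 stood at 842 in WT replicate 1 against 257 in WT replicate 2.

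Wdr77 encodes MEP50, a WD40-repeat protein that binds PRMT5 and presents substrates to it. PRMT5 places symmetric dimethyl groups on arginines, and with WDR77 and pICln, the product of Clns1a, it forms the methylosome, which methylates the spliceosomal Sm proteins before they are assembled on small nuclear RNAs. PRMT5 is known in ESCs and early germ cells as an enzyme needed to maintain the undifferentiated state. Atp5f1 has another role, since it encodes subunit b in the peripheral stalk of the mitochondrial ATP synthase.

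Wdr77 and Atp5f1 are a head-to-head gene pair on chromosome 3. In the GENCODE annotation of GRCm38, Wdr77 runs from 105959369 to 105970037 on the plus strand, and Atp5f1 from 105942698 to 105960099 on the minus strand. The gene bodies share 731 bp, of which 337 bp are exonic in both genes, 6.96% of the exonic bases of Wdr77 and 8.21% of those of Atp5f1. The annotation and strand setting of the counting are not given in the sources used here, so reads from those bases may not be told apart. In RefSeq the gene bodies do not overlap. There Atp5f1 starts at 105959263 on the minus strand and Wdr77 at 105959498 on the plus strand, with the starts 235 bp apart. A further transcript of the plus strand, Gm42890, starts within the pair and was not analysed here.

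The promoter windows of the pair, 250 bases before to 50 after each RefSeq start, are shown because the pair shares them, and that of Prmt5 is shown for contrast. Sequences are 5′ to 3′ on the strand of each gene, from RefSeq for GRCm38.p6, and capitals mark TCTCGCGAGA. This is the longest stretch of the Wdr77 window that equals its own reverse complement and occurs there more than once, and such letters are known to be bound by the factor BANP.
Wdr77, chr3:105959248-105959547, plus strand: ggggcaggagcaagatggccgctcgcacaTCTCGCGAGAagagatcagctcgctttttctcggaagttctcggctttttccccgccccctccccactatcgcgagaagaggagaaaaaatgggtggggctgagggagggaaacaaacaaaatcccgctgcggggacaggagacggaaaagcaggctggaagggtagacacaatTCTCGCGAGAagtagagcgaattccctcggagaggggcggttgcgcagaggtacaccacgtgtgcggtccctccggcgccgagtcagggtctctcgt
Atp5f1, chr3:105959214-105959513, minus strand: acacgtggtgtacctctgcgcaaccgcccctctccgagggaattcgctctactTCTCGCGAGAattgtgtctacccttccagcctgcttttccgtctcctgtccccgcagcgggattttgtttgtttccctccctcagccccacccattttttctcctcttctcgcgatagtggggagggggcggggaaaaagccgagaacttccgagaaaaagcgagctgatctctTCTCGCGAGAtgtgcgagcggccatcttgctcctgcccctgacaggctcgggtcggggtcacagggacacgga
Prmt5, chr14:54517421-54517720, minus strand: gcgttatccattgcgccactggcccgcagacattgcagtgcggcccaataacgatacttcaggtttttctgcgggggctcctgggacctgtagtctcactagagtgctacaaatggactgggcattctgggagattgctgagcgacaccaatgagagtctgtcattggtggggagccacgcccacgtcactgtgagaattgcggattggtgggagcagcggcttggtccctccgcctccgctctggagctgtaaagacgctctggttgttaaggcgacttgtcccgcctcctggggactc
Of the 300 bases in each window of the pair, 266 (88.7%) are the same DNA read from opposite strands. TCTCGCGAGA occurred 2 times in this stretch, and a repeat was required by the way it was chosen. Of the 32851 promoter windows of RefSeq, 11 (0.0335%) held it 2 or more times, with both windows of the pair among them. One match or more was present in 0.466% of the windows. A further 4 motifs were searched on both strands, and no match of theirs in the windows of the pair overlapped the palindrome. CACGTG was found 1 time in each window of the pair and is held by 7.15% of all windows. GGGCGG was found 2 times in each, against 35.7% of all windows with a match. AAGATGGC was found 1 time in each and is held by 2.75% of all windows. CCAAT was absent from the pair and is held by 37.4% of all windows. Windows were at hand for 4 of the 6 partners, Prmt5, Clns1a, Riok1 and Snrpd3, and these held no TCTCGCGAGA. The Prmt5 window held CCAAT 4 times and none of the other motifs. These matches describe the letters only.

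Wdr77 and Atp5f1 stood at about 50% of their WT level in Mut18 and not in Mut43. Wdr77 had 3863 and 3935 normalized counts in the WT libraries, against 2080 and 2152 in Mut18 cells and 4552 and 4363 in Mut43 cells. Normalized counts are reads per gene scaled to the effective size of each library. Both Mut18 libraries were below both WT libraries, and both Mut43 libraries were above them. The Wdr77 level of Mut18 was 54.3% of that of WT and 47.5% of that of Mut43, with log2 fold changes of -0.88 and -1.07 (SE 0.046 for both). Mut43 lay above WT by a log2 fold change of 0.19 (SE 0.044).

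Atp5f1 had 5046 and 5211 normalized counts in WT cells, against 2628 and 2733 in Mut18 cells and 5463 and 5171 in Mut43 cells. The Mut18 libraries were again the lowest pair, and the ranges of WT and Mut43 overlapped. The log2 fold change of Atp5f1 was -0.94 (SE 0.046) for Mut18 against WT, -0.99 (SE 0.046) for Mut18 against Mut43 and 0.05 (SE 0.044) for Mut43 against WT. In raw reads, the Wdr77 count per Atp5f1 count was 0.766 and 0.755 in WT cells. It was 0.792 and 0.788 in Mut18 cells and 0.833 and 0.844 in Mut43 cells, above both WT libraries in each clone. In Mut18 this balance within the pair moved far less than either gene did. In these bulk libraries, fewer cells that express the pair and less RNA per cell cannot be told apart.

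**Figure D1:**
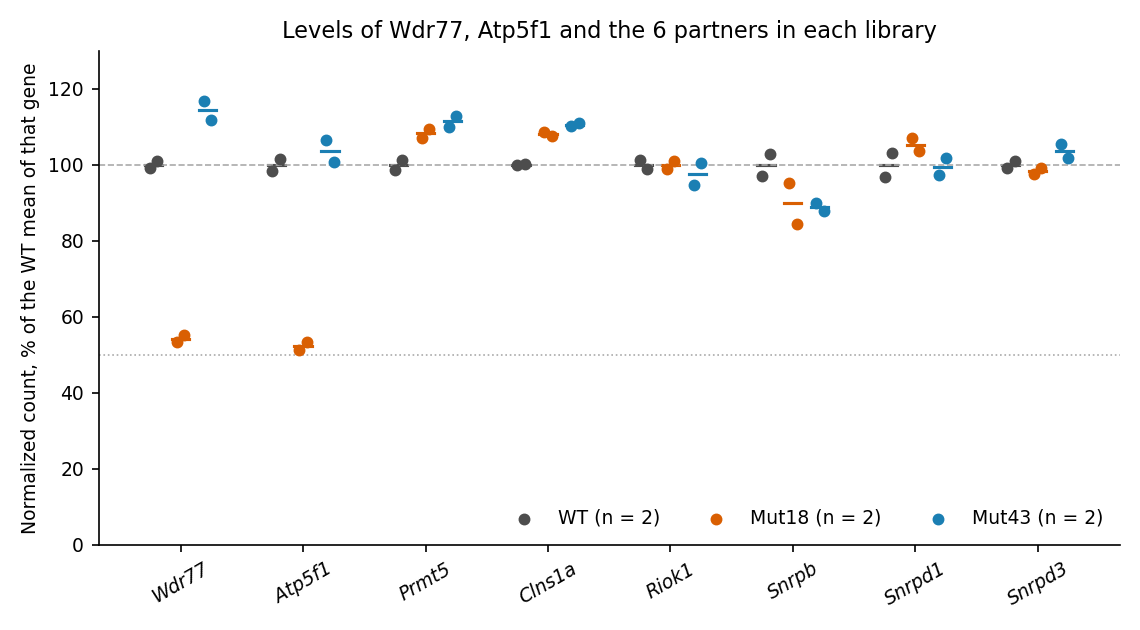
Normalized count of each gene in each of the 6 mRNA-seq libraries (points), as a percent of the WT mean of that gene, with the mean of each line as a short bar (n = 2). The Mut18 points of Wdr77 and Atp5f1 lie near the dotted line at 50%, while the points of the 6 partners stay near the dashed line at 100% in every line.

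The 6 partners did not follow Wdr77 down. In Mut18 against Mut43, 0 of the 6 were called by edgeR at an adjusted p under 0.05, where 0.327% of all tested genes were called (0.0640% lower in Mut18). None of the 6 had an unadjusted p under 0.05, and DESeq2 called 0 too. Their log2 fold changes ran from -0.07 (Snrpd3) to 0.08 (Snrpd1), with a median of -0.01 beside 0.00 over all 14061 tested genes. The lowest 95% bound among the 6 was -0.17, for Snrpd3, which is a level of 0.89 times that of Mut43. A drop of the size seen for Wdr77, near -1 on the log2 scale, lay outside the interval of each partner.

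Prmt5, the methyltransferase itself, had 4466 and 4583 normalized counts in WT cells, against 4848 and 4950 in Mut18 cells and 4974 and 5111 in Mut43 cells. Every Mut18 library was above both WT libraries and below both Mut43 libraries. The log2 fold change of Prmt5 was -0.04 between the clones (95% interval -0.13 to 0.05, adjusted p = 0.866). Per kb of exon, Prmt5 had 1.41 and 1.42 times the CPM of Wdr77 in WT and 1.34 and 1.43 times in Mut43. In Mut18 the same ratio was 2.85 and 2.81.

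Clns1a encodes pICln, the chaperone that brings Sm proteins to PRMT5. It had 3233 and 3241 normalized counts in WT cells, against 3516 and 3484 in Mut18 cells and 3567 and 3592 in Mut43 cells. The clones differed by a log2 fold change of -0.03 (95% interval -0.12 to 0.06, adjusted p = 0.911). Riok1, an adaptor that competes with pICln for PRMT5, had the lowest counts of the set, 879 and 857 in WT cells, against 858 and 876 in Mut18 cells and 822 and 873 in Mut43 cells. Its groups overlapped in every comparison, and the clones differed by 0.03 on the log2 scale (95% interval -0.10 to 0.16, adjusted p = 0.939).

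Snrpb, Snrpd1 and Snrpd3 encode the Sm proteins B, D1 and D3, the methylosome's own substrates. Snrpb had 3335 and 3535 normalized counts in WT cells, against 3273 and 2898 in Mut18 cells and 3089 and 3017 in Mut43 cells. Its Mut18 libraries spanned both Mut43 libraries, and the clones differed by 0.02 (95% interval -0.09 to 0.12, adjusted p = 0.969). Snrpd1 had 3673 and 3909 in WT cells, against 4054 and 3924 in Mut18 cells and 3689 and 3855 in Mut43 cells, which gave a log2 fold change of 0.08 between the clones (95% interval -0.01 to 0.18, adjusted p = 0.663). Snrpd3 had 2372 and 2414 in WT cells, against 2338 and 2374 in Mut18 cells and 2522 and 2438 in Mut43 cells, which gave a difference of -0.07 (95% interval -0.17 to 0.02, adjusted p = 0.709). The 2 clones did not overlap for Snrpd1 or Snrpd3, in opposite directions.

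**Figure D2:**
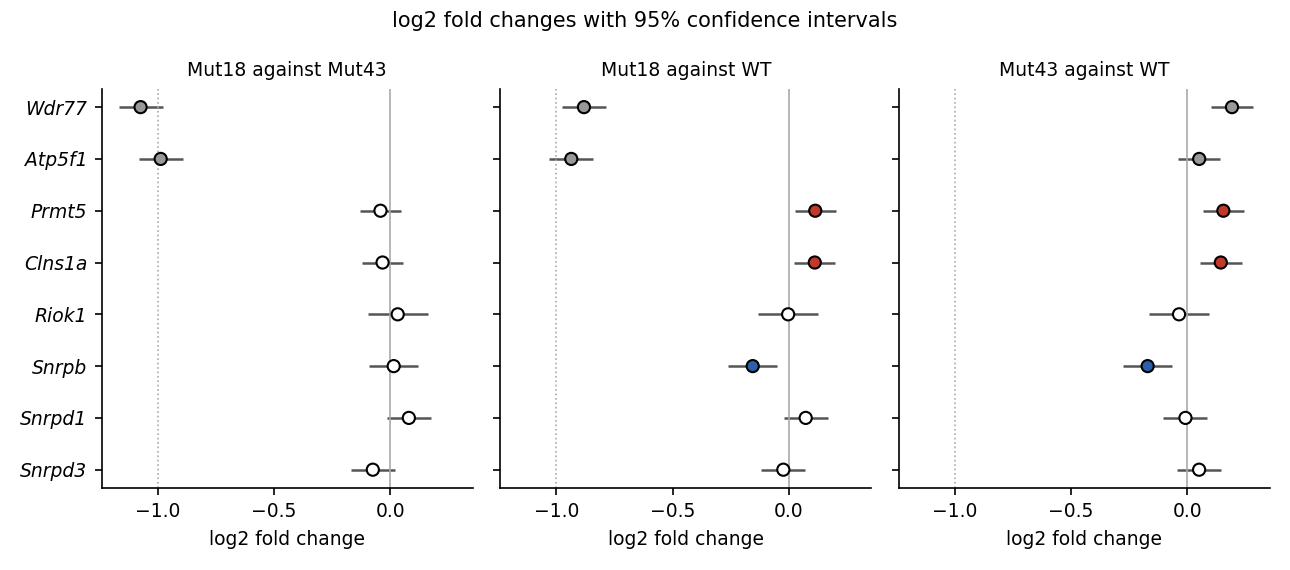
log2 fold change of each gene in the 3 comparisons, with 95% confidence intervals from the edgeR fit. Gray points are described without a test, red and blue points were called higher and lower at an adjusted p under 0.05, and white points were not called. All partner intervals end far from the dotted line at -1, with the lowest bound of the Mut18 against Mut43 panel at -0.17.

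Against WT, Prmt5 and Clns1a were slightly higher and Snrpb slightly lower in each clone. In Mut18 against WT, 3 of the 6 partners were called, where 41.3% of all tested genes were (20.3% higher and 21.0% lower). Prmt5 rose by a log2 fold change of 0.11 (SE 0.043, adjusted p = 0.0341) and Clns1a by 0.11 (SE 0.043, adjusted p = 0.0394). Snrpb fell by 0.15 on the log2 scale (SE 0.051, adjusted p = 0.0175). Riok1 (-0.0020), Snrpd1 (0.07) and Snrpd3 (-0.02) did not pass the test. In Mut43 against WT, again 3 of 6 were called, where 46.8% of all tested genes were (22.9% higher and 23.9% lower). The values were 0.16 for Prmt5 (SE 0.043, adjusted p = 0.00398), 0.15 for Clns1a (SE 0.043, adjusted p = 0.00751) and -0.17 for Snrpb (SE 0.051, adjusted p = 0.00822). Both comparisons use the same 2 WT libraries.

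In level, Prmt5 was at 108% and 111% of WT in Mut18 and Mut43, Clns1a at 108% and 111%, and Snrpb at 89.8% and 88.9%. Several of these calls depended on single libraries. For Mut18 against WT, of 11 alternatives with a p, Prmt5 was called in 7 (adjusted p 0.0274 to 0.170), Clns1a in 5 (0.0291 to 0.122) and Snrpb in 6 (0.00537 to 0.419). The count of called partners in Mut18 was 1 without WT replicate 1, WT replicate 2 or Mut18 replicate 1, 0 without Mut18 replicate 2, and 2 without Mut43 replicate 1 or 2. DESeq2 called 1. In Mut43 against WT the count was 3, save for 1 without Mut43 replicate 2 and 2 without WT replicate 2 or Mut43 replicate 1. No partner was called beyond a 2-fold change.

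Per kb of exon, the gene pair moved down in the order of levels in Mut18. In WT the order, in CPM per kb, was Snrpd1 (123), Snrpb (115), Atp5f1 (83.0), Prmt5 (75.9), Clns1a (55.8), Wdr77 (53.5), Snrpd3 (46.2) and Riok1 (6.09), and the ranges of neighbours did not overlap. In Mut18 Atp5f1 was at 43.4, under Clns1a (60.3) and Snrpd3 (45.5), and Wdr77 at 29.0 was above Riok1 (6.09) alone. In Mut43 the ranges of Atp5f1 (86.0) and Prmt5 (84.6) overlapped, as did those of Clns1a (61.7) and Wdr77 (61.2). Lengths are of all annotated exons of a gene, so they can exceed the length of the transcripts in use.

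The wider pathway was read at the same threshold, at which 0.327% of all tested genes were called between the clones, so that a count of 0 in a short list is near that background. Between Mut18 and Mut43, 0 genes were called by edgeR, and 0 by DESeq2 of those it gave an adjusted p, among the 8 tested Sm and Lsm core genes, the 9 genes of the SMN complex, which loads Sm rings onto RNA, the 8 tested arginine methyltransferases, the 10 tested genes of the methyl donor cycle, the 8 tested other PRMT5 cofactors and substrates, and the 15 ATP synthase genes other than Atp5f1. One gene had an unadjusted p under 0.05 in each of 4 lists, namely Gemin6 (-0.13), Prmt2 (0.43), Mtrr (-0.18) and Atpif1 (0.13), and no gene did in the other two. The median log2 fold changes of the lists ran from -0.03 to 0.03. Snrpf was listed at 2.03 to 4.00 normalized counts and Bhmt at 2.93 to 10.1, under the filter.

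The ATP synthase genes are the relevant comparison for Atp5f1, since their products are parts of the same enzyme or regulate it. Between the clones the 15 others lay between -0.03 (Atp5b) and 0.13 (Atpif1), with a median of 0.01, against -0.99 for Atp5f1. Their lowest 95% bound was -0.20, for Atp5e. Atp5h, which encodes subunit d of the same stalk, had 2256 and 2334 normalized counts in WT cells, against 3178 and 3078 in Mut18 cells and 3033 and 3113 in Mut43 cells. Atp5o, for the subunit at the top of the stalk, had 3008 and 3118 in WT cells, against 3245 and 3000 in Mut18 cells and 3205 and 3165 in Mut43 cells. Atp5h was above WT in both clones, and the Mut18 range of Atp5o spanned those of the other two lines.

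**Figure D3:**
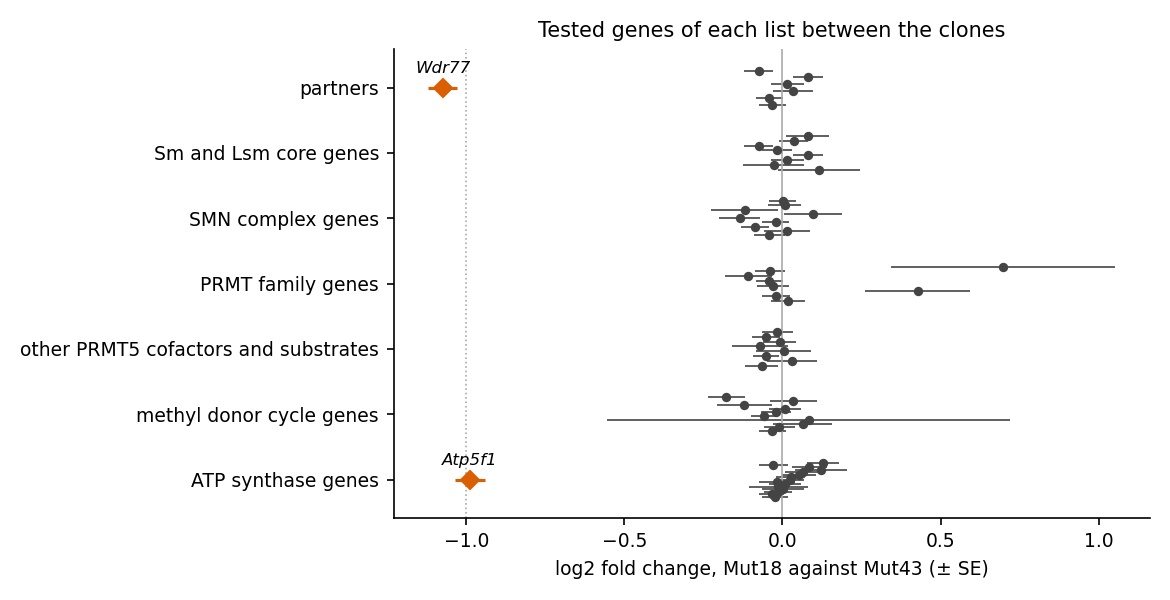
log2 fold change of Mut18 against Mut43 with its SE for each tested gene of 7 lists (points), with Wdr77 and Atp5f1 as diamonds. The diamonds stand at -1.07 and -0.99, while the lowest other gene is Mtrr at -0.18 and the highest points are Prmt8 (0.70) and Prmt2 (0.43).

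Against WT, members of these lists changed in both clones. Some of the higher genes, though not most, lie on chromosome 11. Its 1182 tested genes had a median log2 fold change of 0.38 in Mut18 and 0.38 in Mut43, against -0.08 to 0.06 for the other autosomes. The part of this shift in any list was not tested. Over all tested genes, 20.3% were called higher and 21.0% lower in Mut18, and 22.9% higher and 23.9% lower in Mut43. Of the SMN complex, 3 genes of 9 rose in Mut18 and 5 in Mut43, and none fell. The Mut43 count was 3 without WT replicate 1 or Mut43 replicate 2. The called genes of Mut18 were Gemin4 (0.64, SE 0.046) and Gemin5 (0.50, SE 0.043), both on chromosome 11, and Gemin2 (0.26, SE 0.074), on chromosome 12. Of the Sm and Lsm core genes, 3 rose and 1 fell in Mut18, and 2 rose and 1 fell in Mut43. In Mut18 the largest were Lsm10 (0.41, SE 0.134) and Lsm11 (0.37, SE 0.100), which build the U7 particle, and Snrpd2 (0.19, SE 0.048). Of the ATP synthase genes, 2 rose in Mut18, Atp5g1 (0.70, SE 0.052) and Atp5h (0.45, SE 0.046), both on chromosome 11. In Mut43, 4 rose and 1 fell. These counts of 2 and 4 of 15 higher genes lie near or below the shares over all genes. Without WT replicate 2, 4 ATP synthase genes were called in Mut18, and in Mut43 the count of 5 fell to 3 without WT replicate 1 or Mut43 replicate 2 and to 2 without Mut43 replicate 1.

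The arginine methyltransferases moved in both directions. In each clone 3 of 8 rose and 3 fell against WT, beside 20.3% higher and 21.0% lower of all genes in Mut18 and 22.9% and 23.9% in Mut43. Without WT replicate 1 or Mut18 replicate 1, the count in Mut18 was 3, with 1 higher and 2 lower. Prmt7, which makes monomethylarginine, rose by 0.31 (SE 0.048, adjusted p = 9.05e-06 by edgeR) in Mut18 and 0.35 (SE 0.048) in Mut43. Prmt2 fell by 0.39 (SE 0.152) and 0.82 (SE 0.159), and Carm1, an asymmetric methyltransferase, by 0.27 (SE 0.053) and 0.29 (SE 0.053). Of the methyl donor cycle, 3 rose and 1 fell in Mut18, led by Mat2b on chromosome 11 (0.27, SE 0.048), the regulatory subunit of the enzyme that makes the methyl donor. In Mut43, 4 rose and 1 fell. The count of 4 called in Mut18 was 2 without any 1 of the 6 libraries, and the 5 in Mut43 were 3 without WT replicate 1, WT replicate 2 or Mut43 replicate 1.

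Of the other PRMT5 cofactors and substrates, 5 of 8 rose in each clone and none fell, beside 20.3% of all genes higher in Mut18 and 22.9% in Mut43. In each clone 2 of the 5 lie on chromosome 11, and the calls in Mut18 changed when some single libraries were left out. Prdm14 and Prdm1, transcriptional regulators of the germ line that are known to work with PRMT5, had the largest changes. Prdm14 had 137 and 158 normalized counts in WT cells, against 355 and 348 in Mut18 cells and 367 and 371 in Mut43 cells. The log2 fold change of Prdm14 was 1.26 (SE 0.100) in Mut18 and 1.33 (SE 0.0995) in Mut43. Prdm1 had 173 and 171 in WT cells, against 384 and 351 in Mut18 cells and 358 and 375 in Mut43 cells, with log2 fold changes of 1.09 in both clones (SE 0.096). Coil, on chromosome 11, encodes the Cajal body scaffold and rose by 0.58 (SE 0.056) and 0.64 (SE 0.056). Between the clones Prdm14 differed by -0.07 (SE 0.087, adjusted p = 0.904 by edgeR) and Coil by -0.07 (SE 0.053, adjusted p = 0.816).

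The genes around the pair are described by their values, since few genes anywhere were called between the clones. Of the 11 other tested genes that start within 1 Mb of Wdr77, 0 were called between the clones by edgeR, beside 0.327% of all tested genes (0.0640% lower). One, Ovgp1, had an unadjusted p under 0.05, and DESeq2 called 0 of the 5 to which it gave an adjusted p. On the upstream side, Rap1a, a small GTPase gene whose start lies at -158033 bp from that of Wdr77, had 974 and 905 normalized counts in WT cells, against 770 and 840 in Mut18 cells and 900 and 841 in Mut43 cells, which gave a log2 fold change of -0.11 between the clones (SE 0.067, adjusted p = 0.690). Fam212b had 77.1 and 78.4 in WT cells, against 35.0 and 39.4 in Mut18 cells and 41.7 and 44.6 in Mut43 cells, and was low in both clones. Ddx20, whose product is a helicase of the SMN complex, had 1821 and 1898 in WT cells, against 1831 and 1762 in Mut18 cells and 1820 and 1877 in Mut43 cells, which gave a difference of -0.04 (SE 0.049, adjusted p = 0.895). Cttnbp2nl, the fourth gene upstream, differed by 0.11 (SE 0.070).

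Downstream, the nearest genes were scarcely expressed. Ovgp1, an oviduct glycoprotein gene that starts 14342 bp from the Wdr77 start, had 15.6 and 11.8 normalized counts in WT cells, against 5.01 and 9.10 in Mut18 cells and 22.4 and 17.2 in Mut43 cells. The Mut18 libraries were the lowest pair, with a log2 fold change of -1.48 against Mut43 (SE 0.441, adjusted p = 0.213). Pifo, 55277 bp away, had 2.93 and 8.82 in WT cells, against 5.01 and 4.05 in Mut18 cells and 10.2 and 10.1 in Mut43 cells (-1.14, SE 0.606, adjusted p = 0.638). Neither gene passed the adjusted threshold at these low counts. Farther on, Dennd2d had 23.4 and 22.5 in WT cells, against 5.01 and 5.06 in Mut18 cells and 7.12 and 12.2 in Mut43 cells, and Dram2 differed between the clones by -0.15 (SE 0.127). Over the 7 neighbours whose mean reached 50 normalized counts, the log2 fold change between the clones ran from -0.21 to 0.11. Against WT, 4 of the 11 fell in each clone and none rose, beside 21.0% of all genes lower in Mut18 and 23.9% in Mut43, and DESeq2 called 3 and 2 lower. The 4 were not the same genes, though Fam212b and Dennd2d were among those called in both clones. Rap1a was called lower in Mut18 alone, at -0.22 (SE 0.066, adjusted p = 0.00846 by edgeR), beside -0.11 in Mut43 (adjusted p = 0.179). Cttnbp2nl was called lower in Mut43 alone, at -0.24 (SE 0.069, adjusted p = 0.00636 by edgeR), beside -0.13 in Mut18 (adjusted p = 0.144).

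**Figure D4:**
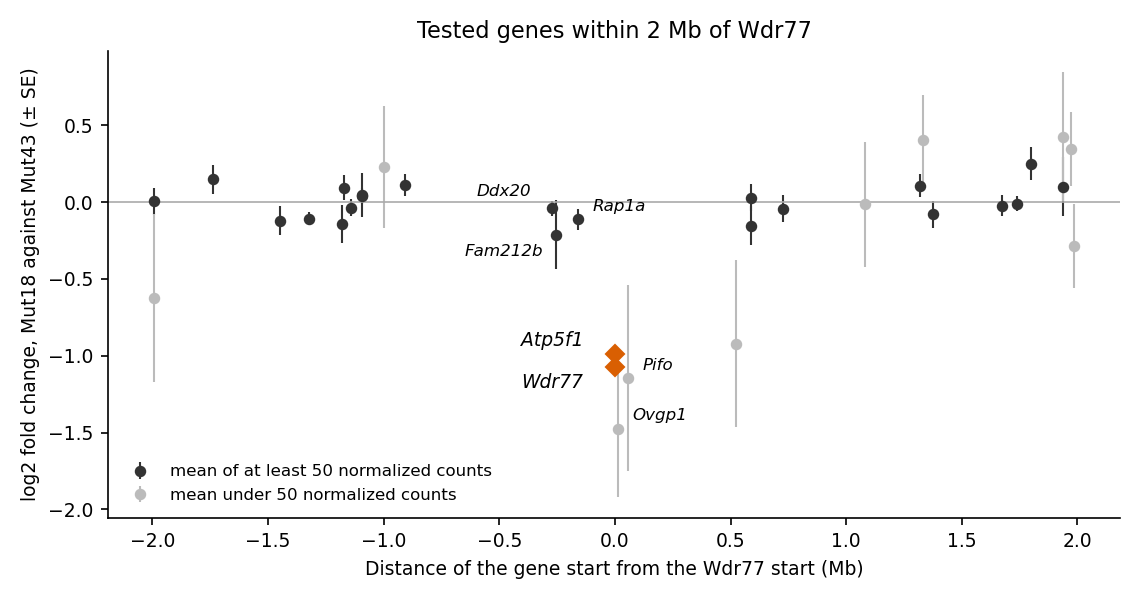
log2 fold change of Mut18 against Mut43 with its SE for each tested gene that starts within 2 Mb of Wdr77, by distance of the starts in Mb. Black points have a mean that reached 50 normalized counts and lie between -0.21 and 0.11 within 1 Mb. Wdr77 and Atp5f1 (diamonds) stand apart from them, and the low points beside them, Ovgp1 and Pifo, have wide errors.

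Open chromatin was present at the shared promoter in every ATAC-seq library, Mut18 included. Merging the 6 peak lists gave 1 region over the start of the pair, chr3:105959036-105959954, with a peak in all 6 libraries. The fold enrichment of the peak over background, as the deposited lists give it, was 7.50 and 9.15 in WT cells, against 9.03 and 7.39 in Mut18 cells and 8.29 and 8.28 in Mut43 cells. The Mut18 values spanned those of Mut43. Scaled by the median of each library, Mut18 over Mut43 was -0.01 on the log2 scale, at percentile 47.4 of the 48984 regions shared by all 6 libraries. Leaving out 1 of these 4 libraries gave -0.17 to 0.13. With 2 libraries against 2, the smallest two-sided exact permutation p is 0.333, so no test was made.

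The width and the significance of the promoter peak differed more than its height, which was seen after the values had been examined. The peaks called in this region covered 890 and 730 bp in WT, 453 and 516 bp in Mut18, and 902 and 552 bp in Mut43. In both Mut18 libraries the peak over the RefSeq start of Wdr77 ended within 61 bases after it, while in the other 4 it ended 115 to 456 bases after it. WT replicate 2 had a second, separate peak from 238 to 435 bases after the start, which its covered length includes. The -log10 q of the peak, a measure of significance given by the peak caller, was 37.1 and 36.8 in WT cells, against 25.0 and 16.6 in Mut18 cells and 32.1 and 28.4 in Mut43 cells. Mut18 over Mut43 was -0.59 on the log2 scale for the covered length (percentile 1.52 of the shared regions) and -0.52 for the scaled -log10 q (percentile 1.57). Read depth is not held in the peak lists.

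Within 10 kb of the pair there were 3 regions, and only the promoter had a peak in all 6 libraries. A small region in the first part of Wdr77 was listed in WT replicate 1 alone. The third, chr3:105971206-105971543, past the end of Wdr77 and within an intron of Gm42890, had fold enrichments of 4.99 and 6.38 in WT, 6.05 in Mut18 replicate 2, and 6.59 and 6.04 in Mut43, and no peak in Mut18 replicate 1. Within 50 kb, 3 more regions were found. One lay in introns of Adora3 and Tmigd3, chr3:105899774-105900063, with fold enrichments of 9.41 and 11.1 in WT and 9.58 and 9.09 in Mut43, and no peak in either Mut18 library. Of the 51862 regions with a peak in all 4 WT and Mut43 libraries, 467 (0.9%) had none in Mut18, and 0.946% of the matching regions had none in Mut43. A region downstream, chr3:105989628-105989955, was listed in WT replicates 1 and 2 and in Mut43 replicate 2. The last, chr3:106001153-106001923 within Pifo, had a peak in all 6, with 13.6 and 13.0 in WT cells, against 13.6 and 14.1 in Mut18 cells and 12.4 and 13.9 in Mut43 cells.

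**Figure D5:**
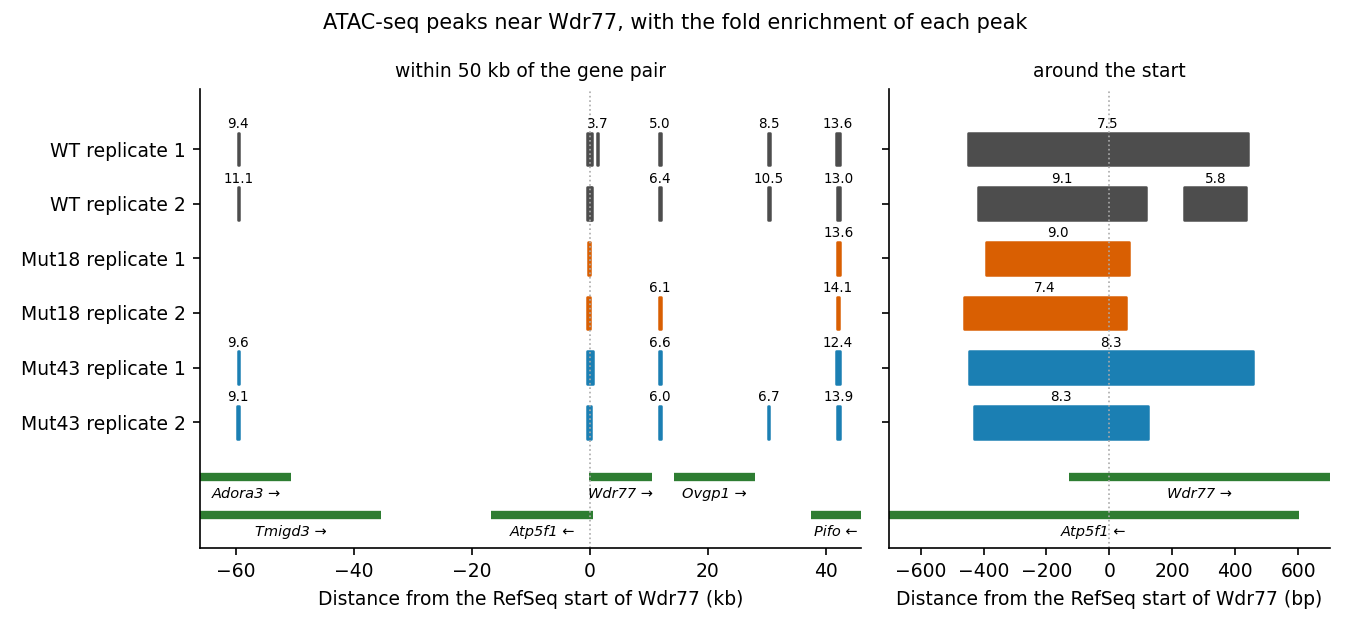
ATAC-seq peaks (boxes) in each library by distance from the RefSeq start of Wdr77, in kb on the left and in bp on the right, with the fold enrichment above a box and gene bodies in green. The promoter peak is present in all 6 libraries, it ends nearer to the start in Mut18, and the leftmost region has no peak in Mut18.

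The start of each partner also carried a peak in all 6 libraries. At the Prmt5 start (chr14:54517127-54517822) the fold enrichment was 11.5 and 12.5 in WT cells, against 12.4 and 11.6 in Mut18 cells and 12.8 and 12.4 in Mut43 cells. The lowest of the set was Snrpb (chr2:130178831-130179825), with 5.01 and 5.56 in WT cells, against 5.88 and 4.70 in Mut18 cells and 5.75 and 6.44 in Mut43 cells. The scaled log2 ratio of Mut18 over Mut43 ran from -0.20 (Snrpb) to 0.19 (Snrpd1), within the range from -0.22 to 0.22 that holds the middle 90% of shared regions, and was -0.07 for Prmt5.

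Atp5f1 was the gene whose profile over the 6 libraries was nearest to that of Wdr77. Likeness was the root-mean-square distance between centred log2 CPM values, among 11075 other genes whose mean reached 50 normalized counts. Atp5f1 stood at 0.059. The next were Adad2 (0.283), Fam132b (0.291), Gm16973 (0.292) and Plcxd1 (0.296), on chromosomes 8, 1, 14 and 5, beside a median distance of 0.488. Adad2 had 92.7 and 87.2 normalized counts in WT cells, against 65.1 and 66.7 in Mut18 cells and 83.4 and 94.4 in Mut43 cells, a far smaller drop than that of the pair.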

How the data were processed

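For 6 mRNA-seq libraries the deposited table holds whole-number counts of reads by gene. For 6 ATAC-seq libraries the deposited peak lists give the fold enrichment of each peak (a ratio to background) with its -log10 p and -log10 q. The submitters' processing notes name Bowtie2 2.3.4.2, SAMtools and deepTools 3.3.0 for both assays, STAR and DESeq2 for mRNA-seq and MACS2 for ATAC-seq, with mm10 as the build, which the methods of the study join with dm6. The counting program, annotation and strand setting are not given in the sources used here. Peaks were called per library. ChIP-seq samples were not analysed here.

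Counts were analysed with edgeR 4.0.16 in R 4.3.3: filterByExpr (minimum count 10), TMM, a quasi-likelihood F-test with 3 lines and no replicate term, and Benjamini-Hochberg adjustment over 14061 of 16263 genes. Calls are at an adjusted p under 0.05. Counts and shares over all tested genes include Wdr77 and Atp5f1. Intervals and p-values measure the spread between these libraries. Symbols were matched to GENCODE (15616 directly, 478 by an older symbol, 169 without a unique place). Peaks overlapping by 1 bp were merged with pandas 2.3.3. The procedures were tested on simulated data. Between the simulated clones, 87 of 100 2-fold and 67 of 100 1.5-fold changes were called, with 17 false calls. These false calls were a larger share of the calls than the 0.05 of the threshold. In simulated Mut43 against WT, where no gene was changed, 5 genes were called. The members and lists were chosen with earlier results of these data known. Named beyond the 8 members were up to 3 called genes per list and comparison, 4 neighbours on each side and the 5 genes most like Wdr77. Atp5o, the genes with a low unadjusted p, the low genes and the other ATAC regions were named after their values were seen. Alternatives were DESeq2 1.42.0, other normalization, filter, samples and thresholds, and a replicate block.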

Additional observations from a re-analysis of the deposited data

Results flagged for a closer look

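Wdr77 moved in opposite directions in the 2 clones: both Mut18 libraries lay below both WT libraries and both Mut43 libraries lay above them, with a log2 fold change of -1.07 between the clones. The difference was not tested, since it chose the gene.

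Of the 9 tested feeder fibroblast markers, 3 were called between the clones by edgeR, all higher in Mut18, beside 0.263% of all tested genes called higher. The other 6 were not called, among them Thy1 at -0.24 and Col1a2 at 0.52. Acta2 differed by a log2 fold change of 0.62 (adjusted p = 1.09e-05), Col1a1 by 0.41 (adjusted p = 0.000132) and Tagln by 0.38 (adjusted p = 0.000476). Acta2 had 2728 and 2572 normalized counts in WT cells, against 2319 and 2025 in Mut18 cells and 1555 and 1268 in Mut43 cells. Each was higher in 2 of 2 Mut18 libraries than in both Mut43 libraries. Their part in the values of Wdr77 and its partners was not tested.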

How the results depend on the processing

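The log2 fold changes of Wdr77 and Atp5f1 in all 3 comparisons kept their sign under every alternative run. Leaving out 1 library gave -1.11 to -1.04 for Wdr77 and -1.03 to -0.95 for Atp5f1 in Mut18 against Mut43, -0.90 to -0.85 and -0.96 to -0.90 in Mut18 against WT, and 0.17 to 0.23 and 0.02 to 0.10 in Mut43 against WT. The last range, around 0.05 for Atp5f1, runs from 0.02 without Mut43 replicate 1 to 0.10 without Mut43 replicate 2, with 0.03 without WT replicate 1 and 0.08 without WT replicate 2. No partner was called between the clones under any alternative.

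For all genes, Mut18 against Mut43 (46 called) gave 25 with DESeq2, 24 without the filter, 76 with only the 2 lines compared, 1 beyond 2-fold and 3 to 70 without 1 library. Mut18 against WT (5806) gave 3537 with DESeq2 and 1058 beyond 2-fold, and Mut43 against WT (6581) gave 4297 and 1448. The genes counted for all of these include Wdr77 and Atp5f1. Partners called in Mut18 against WT (3) were 1 with DESeq2, 0 beyond 2-fold and 0 to 2 without 1 library, and in Mut43 against WT (3) 0 beyond 2-fold and 1 to 3 without 1 library. With DESeq2, Sm and Lsm core genes called in Mut18 against WT went from 4 to 1, methyl donor cycle genes from 4 to 2, SMN complex genes in Mut43 against WT from 5 to 2, and genes within 1 Mb of Wdr77 in Mut43 against WT from 4 to 2. Within 2 Mb, 10 genes were called in Mut18 and 12 in Mut43 against WT, beside 41.3% and 46.8% of all tested genes. This window holds more tested genes than that of 1 Mb. In each clone the share called in the wider window was below that over all genes.

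Values near 0 changed sign. Riok1 in Mut18 against WT was 0.0044 with DESeq2, 0.0011 with relative log expression factors, 0.0085 without the filter, 0.0029 with only the 2 lines compared and -0.013 to 0.020 without 1 library. Without 1 library, Riok1 ran from -0.0090 to 0.076 in Mut18 against Mut43 and from -0.070 to 0.014 in Mut43 against WT, and Snrpb from -0.075 to 0.10 in Mut18 against Mut43. Snrpd1 in Mut43 against WT was 0.00042 with DESeq2, 0.0036 without the filter and -0.048 to 0.046 without 1 library.

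By Pearson r, 1 of the 5 genes most like Wdr77 remained, Atp5f1. The regions near Wdr77 with a peak in all 6 libraries were 2 within 50 kb and 0 at a -log10 q of at least 20. At the promoter, Mut18 over Mut43 was -0.59 by covered length and -0.52 by scaled -log10 q, both chosen after seeing the data, and -0.17 to 0.13 without 1 library.

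The labels do not say whether the replicate numbers pair the libraries. No shared replicate effect was seen, with correlations of same-numbered deviations of -0.056, 0.009 and -0.026. With a replicate block, partners called in Mut18 against WT went from 3 to 1, and all genes called between the clones from 46 to 38.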

Other observations

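Within 1 Mb of Wdr77 the peak lists held 46 and 41 peaks in WT cells, against 30 and 36 in Mut18 cells and 40 and 36 in Mut43 cells. As a share of all peaks of a library these were 0.0586% and 0.0608% in WT cells, against 0.0472% and 0.0516% in Mut18 cells and 0.0583% and 0.0547% in Mut43 cells, so the Mut18 libraries were the lowest pair. This count was made after the other peaks near Wdr77 had been seen, and it was not tested.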
